A study of Mus musculus with 4 samples.

Results

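The T cells of injured muscle were chosen by their transcripts. A barcode counted as a T cell if it held at least 2 UMIs (distinct RNA molecules) of the CD3 genes *Cd3d*, *Cd3e* and *Cd3g* together, fewer than 5 UMIs of the macrophage genes *C1qa*, *C1qb* and *C1qc* per 10000, fewer than 100 UMIs of the neutrophil genes *S100a8* and *S100a9* per 10000, and no UMI of the B cell gene *Cd79a*. It also had to hold at least 500 detected genes and under 10% mitochondrial UMIs. The rule found 105 T cells among 17665 barcodes past the last pair of limits, a share of 0.594%. Because the rule read these genes, their levels in the T cells are no finding.

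The cells came from the tibialis anterior, a muscle at the front of the lower leg, of male mice aged 8 to 12 weeks. All animals had been injured with cardiotoxin, a snake venom toxin that destroys muscle fibers and leaves them to regenerate. Cells with the leukocyte protein CD45 were enriched with magnetic beads and sequenced by the droplet-based 3′ method of 10x Genomics. There were 4 libraries, 1 for each group: control and KO, each at 2 or 4 days after injury (dpi2 and dpi4). Control mice were *Bach1* fl/fl, that is, homozygous for a *Bach1* gene whose exon 4 lies between loxP sites. KO mice were *Bach1* fl/fl with Cre recombinase under the *Lyz2* promoter, which is active in monocytes, macrophages and neutrophils. Both arms thus carried the floxed alleles, and T cells are not a cell type in which this Cre is expected to act. Each group was a single sample. No group had a replicate library. Differences were therefore not tested, and all intervals below are 95% intervals that cover counting error only.

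T cells recognize antigen through a receptor whose signal passes through the CD3 proteins to the kinases LCK and ZAP70. Conventional T cells carry CD4 or CD8 as a coreceptor, and CD8 cells can kill through granzymes and perforin. Gamma delta T cells mostly lack both coreceptors, settle in tissues, and include cells that release interleukin-17 soon after injury. Regulatory T cells, marked by *Foxp3*, are known to gather in injured muscle and to aid its repair.

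Values for 4 libraries are given throughout with the dpi2 libraries first and, at each time point, the control before the library labelled KO. The libraries held 6602, 4177, 5207 and 4514 barcodes, with 57010520 to 80228489 UMIs in each, and 6010, 3799, 4323 and 3533 barcodes passed the gene and mitochondrial limits. Loss of exon 4 is not visible in 3′ counts, so the counts of *Bach1* do not check the genotype. *Lyz2*, in which the Cre was placed, does separate the arms: its level in macrophages, in UMIs of the gene per 1000000 UMIs (CPM), was 8406, 11.6, 18040 and 23.3.

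Of 156 barcodes with at least 2 CD3 UMIs, the C1q limit removed 48, the S100a limit 2 and *Cd79a* 1. The C1q limit removed 5 and 1 barcodes at dpi2 but 23 and 19 at dpi4. T cells held from 2 to 30 CD3 UMIs, with medians of 11, 14, 12 and 10, and 3 cells held exactly 2. Another 25 barcodes had 1 CD3 UMI and met all other limits, 12, 7, 3 and 3 per library. The T cells with the most C1q held 4.58, 1.84, 4.89 and 4.41 UMIs per 10000, while the removed barcodes with the least held 5.18, 6.18, 5.28 and 5.41. None of the 44 barcodes that recurred between libraries was a T cell.

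The T cell label was checked on genes that the rule had not read. *Lat*, an adaptor of the T cell receptor signal, was detected in 15 of 24, 14 of 14, 17 of 25 and 27 of 31 T cells, counted without the mixed barcodes described next. *Cd5*, a T cell surface protein, was detected in 9, 6, 5 and 11 of them and in no NK cell of any library. *Cd6*, its close relative, was found in 3, 3, 7 and 9 T cells and again in no NK cell. *Ncr1*, a defining receptor of NK cells, had UMIs in 2 T cells, both in the control at dpi4. These 2 cells carried genes of both kinds. Genes of the T cell receptor chains were not analysed here.

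Among the 105 T cells, 11 held at least 100 UMIs of 15 macrophage genes, 4 MHC class II genes and 10 endothelial genes together. The lowest of them held 127 such UMIs, and the highest of the other 94 T cells held 47. Of the 11, 5, 0, 2 and 4 were in the 4 libraries. At dpi2 the control held 4 with 99 to 188 UMIs of *Lyz2* and 1 with 309 MHC class II UMIs. At dpi4 the control held 1 with 366 MHC class II UMIs, and 1 with 578 macrophage and 1181 MHC class II UMIs. The library labelled KO at dpi4 held 3 with 488 to 732 MHC class II UMIs, and 1 with 1262 endothelial UMIs that alone made up 17.1% of all T cell UMIs of its library. These 11 are called mixed barcodes. The limit was set after the data were seen, and the results below are given with and without them. Without them, T cells had median depths of 4013.5, 5727.5, 5971 and 4650 UMIs, and their UMIs summed to 106684, 77797, 156136 and 155379.

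T cells were rare in every library and made up the largest share in the library labelled KO at dpi4. The 4 libraries held 29, 14, 27 and 35 T cells, which are 0.483% (interval 0.323 to 0.692), 0.369% (0.202 to 0.618), 0.625% (0.412 to 0.907) and 0.991% (0.691 to 1.38) of the barcodes. In the libraries labelled KO the share was 0.622 percentage points higher at dpi4 than at dpi2 (interval 0.232 to 1.04), and 0.509 (0.134 to 0.911) without the mixed barcodes. In the controls the difference was 0.142 points and its interval, −0.157 to 0.467, held 0. The library labelled KO differed from the control by −0.114 points at dpi2 (−0.382 to 0.182) and by 0.366 at dpi4 (−0.046 to 0.805), so neither difference was detectable at this depth. Without T cells that held *Ncr1* or *Klrb1c*, the difference at dpi4 was 0.430 points and its interval, 0.0336 to 0.857, left out 0. NK cells, chosen from the same barcodes by *Ncr1* and *Klrb1c*, differed by −0.688 points (−1.06 to −0.301) at dpi2 and 1.0 (0.507 to 1.54) at dpi4, the same signs as the T cells. With the C1q limit at 1 UMI and the S100a limit at 20 per 10000, 27, 12, 6 and 9 T cells were left. The share at dpi4 then differed from that at dpi2 by −0.310 points (−0.532 to −0.0869) in the controls. With the KO label it differed by −0.0611 points (−0.334 to 0.213), so both directions turned. Most T cells at dpi4 thus held C1q or S100a UMIs above these stricter limits.

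The makeup of the T cells differed between the time points. At dpi2 most T cells had no *Cd4*, *Cd8a* or *Cd8b1* UMI, and many expressed *Cd163l1*, a scavenger receptor of gamma delta T cells that make interleukin-17. Later, cells with CD8 transcripts were the largest group with a coreceptor. CD8 transcripts were found in 3 of 29, 0 of 14, 13 of 27 and 13 of 35 T cells. The 0 of 14 cells has an exact upper limit of 23.2%, or 21.4% by the limit of 3 counts, for cells with a captured UMI and not for cells that express CD8. The CD8 share was 37.8 points higher at dpi4 in the controls (interval 11.9 to 59.3) and 37.1 points higher in the libraries labelled KO (9.18 to 55.1). Without the mixed barcodes these were 39.7 and 38.7 points. Under the stricter myeloid limits they were 38.9 (−3.35 to 78.1) and 22.2 points (−10.6 to 60.01), and for mitochondrial shares under 5% the difference with the KO label was 31.6 points (−18.1 to 56.6), with intervals that held 0. Between control and KO labels the CD8 share differed by −10.3 points at dpi2 (−27.4 to 14.2) and −11.0 at dpi4 (−36.3 to 15.5), both with intervals that held 0.

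*Cd163l1* ran the other way in the controls. It was detected in 12 of 29, 4 of 14, 4 of 27 and 7 of 35 T cells, and its share at dpi4 differed from that at dpi2 by −26.6 points in the controls (−48.9 to −0.552). Without the mixed barcodes the difference was −25.7 points and the interval, −50.2 to 2.37, just reached 0. In the libraries labelled KO it was −8.57 points (−40.3 to 17.8). With every T cell thinned to 2000 UMIs, *Cd163l1* was found in 11 of 29, 3 of 14, 4 of 25 and 5 of 34 cells, and CD8 in 1, 0, 9 and 10 of them. The libraries kept their order for CD8, while for *Cd163l1* the dpi4 libraries changed places.

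**Figure D1:**
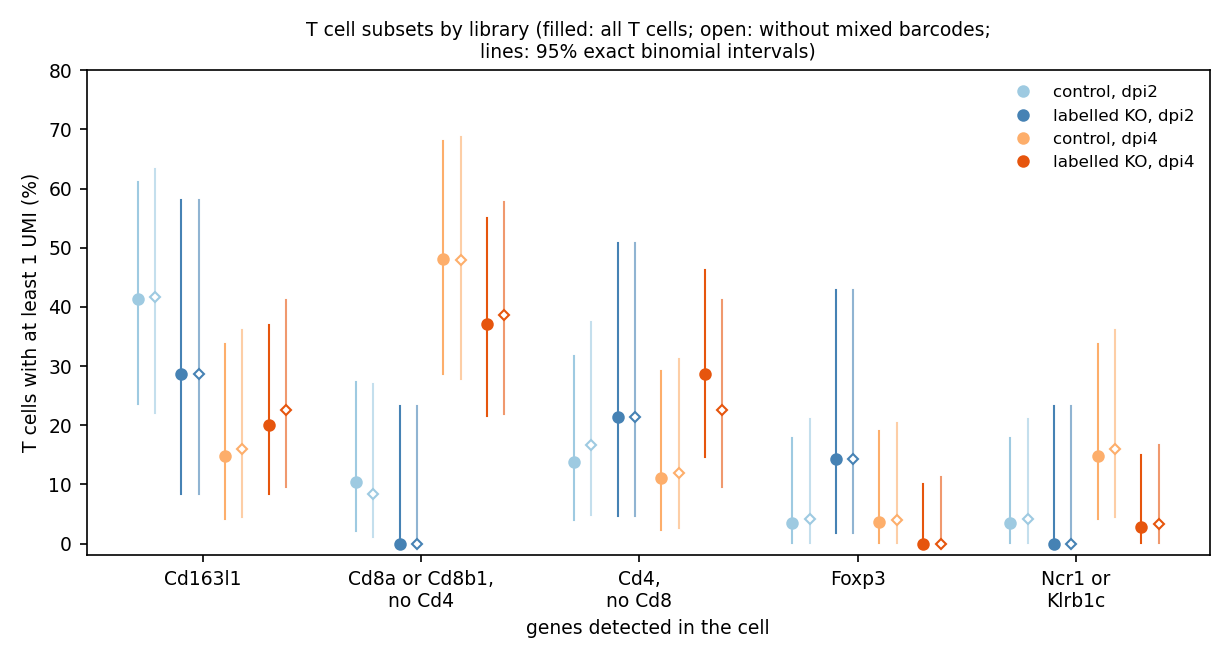
Share of T cells (%, vertical axis) with the transcripts named on the horizontal axis, by library; filled points are all T cells, open points leave out the mixed barcodes, and lines are 95% exact binomial intervals. Cells with *Cd163l1* were most frequent in the control at dpi2, and cells with CD8 made up 48.1% and 37.1% of T cells at dpi4 against 10.3% and 0% at dpi2.

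Cells with *Cd163l1* held genes that few other T cells held. Of 94 T cells without the mixed barcodes, 25 held *Cd163l1* and 69 did not. Of 1510 genes with at least 50 UMIs, 15 (0.993%) were at least 2-fold higher in CPM in the *Cd163l1* cells of every library, and 34 (2.25%) were at least 2-fold lower. *Cd163l1* itself, at chr7:140218267-140231145 on the plus strand (mm10), is 1 of the 15 by choice. *Blk*, a Src family kinase of gamma delta T cells that make interleukin-17, was found in 21 of the 25 cells and in 4 of the 69, a 23.9-fold difference in level. *Serpinb1a*, a protease inhibitor, was found in 20 against 9 cells, *Actn2*, an actin cross-linker, in 19 against 6, and the membrane protein genes *Tmem176a* and *Tmem176b* in 24 against 14 and 23 against 13. The last pair overlaps on opposite strands.

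Type 17 genes had fewer UMIs. *Sox13*, a factor of gamma delta T cell fate, was found in 9 of the 25 *Cd163l1* cells and 1 of the other 69. *Il17a*, encoding interleukin-17A, was found in 6 and 3, and *Il1r1*, the interleukin-1 receptor, in 11 and 5. *Cd247*, the zeta chain of the receptor complex, was found in 23 and 29. The chemokine receptor *Cxcr6* was in all 25 of them, against 42 of 69. None of these 5 genes passed 2-fold in every library with at least 50 UMIs.

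Among the 34 lower genes were costimulatory and cytotoxic ones. *Cd28*, the main costimulatory receptor, was found in 1 of the 25 *Cd163l1* cells and in 46 of the 69 others. *Cd27*, another costimulatory receptor, was in 1 and 31, and *Cd2*, an adhesion protein, in 2 and 43. *Ctla4*, an inhibitory receptor, was in 0 and 21. The cytotoxic genes *Nkg7* and *Ccl5* were each in 1 *Cd163l1* cell, and in 46 and 40 of the others. *Cd4* was in 0 against 17 and *Cd8b1* in 1 against 25, but neither was among the 34.

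**Figure D2:**
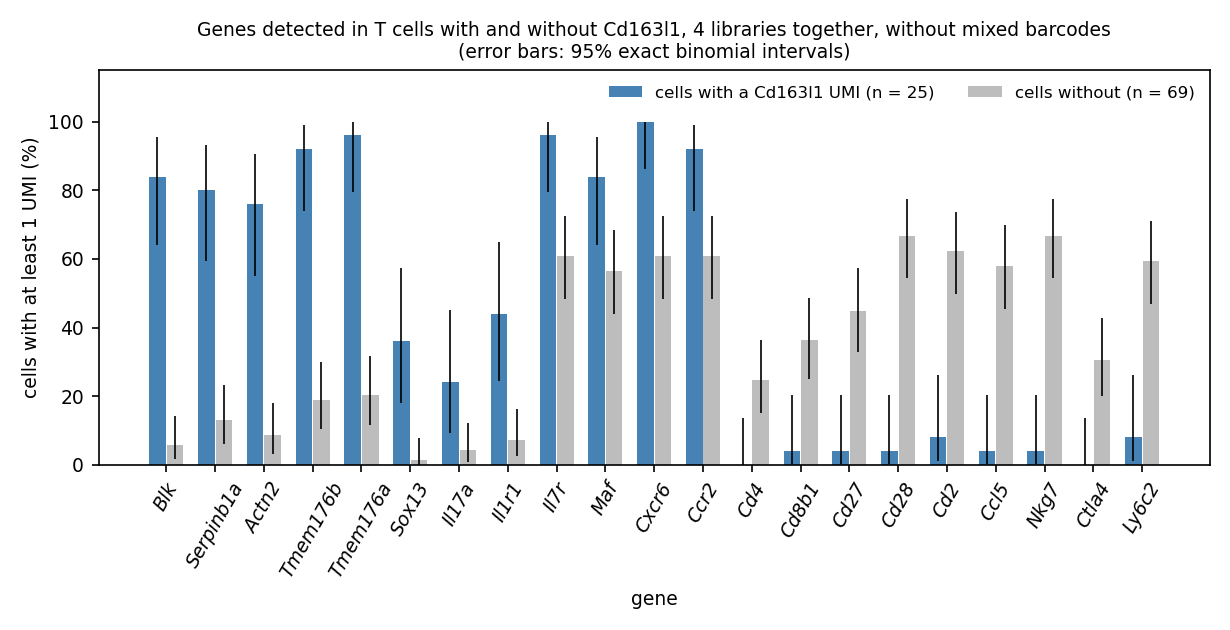
Share of cells (%, vertical axis) with at least 1 UMI of each gene in the 25 T cells with *Cd163l1* and the 69 without, over all 4 libraries and without mixed barcodes; lines are 95% exact binomial intervals. *Blk*, *Serpinb1a*, *Actn2*, *Tmem176b* and *Tmem176a* were found in 76% to 96% of *Cd163l1* cells, while *Cd28*, *Cd2*, *Ccl5* and *Nkg7* were found in at most 8%.

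At dpi4, where CD8 cells were frequent, the 24 CD8 cells were set against the other 32 T cells, again without mixed barcodes. Of 895 genes, 11 (1.23%) were higher in the CD8 cells of both libraries and 19 (2.12%) lower, at 2-fold or more. The split itself read *Cd8a*, *Cd8b1* and *Cd4*, so any of these genes among the 11 or 19 are there by choice. The chemokine gene *Ccl5* was found in 23 of 24 against 11 of 32 cells, *Nkg7*, a protein of cytotoxic granules, in 24 against 14, and *Gzma*, encoding granzyme A, in 9 against 2. *Ly6c2* was found in 22 against 12, but it is close in sequence to *Ly6c1* and reads may be shared. *Bcl2*, which protects from cell death, was in 16 against 8. *Il7r*, the interleukin-7 receptor, was in 8 CD8 cells against 25 of the others, *Cd44*, an activation marker, in 9 against 28, and the factors *Maf* and *Rora* in 10 against 21 and 8 against 23. These contrasts describe cells split by 1 transcript, so a CD8 cell with no captured UMI counts among the others.

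Other subsets were small. *Cd4* without CD8 was found in 4, 3, 3 and 10 T cells, or in 4, 3, 3 and 7 without mixed barcodes, and no cell held both. *Foxp3* was detected in 1, 2, 1 and 0 cells, and the 0 of 35 cells has an exact upper limit of 10.0%, or 8.57% by the limit of 3 counts, again for cells with a captured UMI. The 2 *Foxp3* cells of the library labelled KO at dpi2 held 5 and 3 UMIs of it and 5 and 40 UMIs of *Ctla4*, which is high in regulatory T cells. A single cell of that library held all 57 of its UMIs of *Csf2*, the growth factor GM-CSF. That cell also held 11 UMIs of *Il1rl1*, the interleukin-33 receptor, and 8 of *Gata3*, which type 2 lymphocytes share, with 0 of *Il13*. NK markers (*Ncr1* or *Klrb1c*) were found in 1, 0, 4 and 1 T cells. Without mixed barcodes, the 4 such cells of the control at dpi4 held 54 of that library's 57 UMIs of *Xcl1*, a chemokine that draws in dendritic cells. They also held all 19 UMIs of *Klra8* and 12 of *Ncr1*.

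For gene levels, UMIs were summed over the T cells of a library and given as CPM of their total. A gene passed the rule of size where 2 libraries together held at least 50 UMIs, the ratio was at least 2-fold and its interval left out 1. In such sums a changed mix of subsets and a changed level within cells cannot be told apart. The time and genotype comparisons share libraries, so their values are given side by side. Levels below leave out the mixed barcodes except where they are said to be included. With them, the lowest genes in the library labelled KO at dpi2 were *Lyz2* (0 against 587 UMIs), *Plac8* (0 against 157), *H2-Ab1* (0 against 61), *Vcan* and *H2-Eb1*, genes of monocytes and antigen-presenting cells. The highest at dpi4 were *Col4a1* (163 UMIs against 0), *Gng11*, *Col4a2*, *Sparcl1* and *Cxcl12*, of which the endothelial barcode held nearly all. *Ccl3* and *Cxcl2*, chemokines of activated myeloid cells, were lower at dpi4 by 5 against 159 and 6 against 51 UMIs, of which 155 and 47 lay in 1 cell.

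Between dpi2 and dpi4, *Cd8b1* and the cytotoxic genes *Nkg7* and *Ctsw* were higher, and *Il7r* and *Maf* lower, with either label. In the controls 47 of 743 genes (6.33%) were higher at dpi4 and 51 (6.86%) lower. In the libraries labelled KO 26 of 655 (3.97%) were higher and 28 (4.27%) lower. With the mixed barcodes the shares were 4.29% and 7.38% in the controls and 7.23% and 5.13% in the libraries labelled KO. Both time comparisons shared 6 genes that were higher, 12.8% and 23.1% of each list, and 8 that were lower, 15.7% and 28.6%.

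*Cd8b1*, the beta chain of CD8, had 8, 0, 81 and 89 UMIs and was at least 14.9-fold higher at dpi4 with the KO label, with 3 UMIs in place of the 0. The exact lower limit of that ratio was 3.56 on the log2 scale. In the controls its log2 ratio was 2.79 (1.74 to 4.05). The 24 cells that carried it at dpi4 held at most 16 UMIs each. *Nkg7* had 45, 44, 192 and 232 UMIs, with log2 ratios of 1.54 (1.07 to 2.05) in the controls and 1.40 (0.93 to 1.90) in the libraries labelled KO. *Ctsw*, a protease of cytotoxic cells, had 9, 8, 45 and 71 UMIs and log2 ratios of 1.77 and 2.15. For these 3 genes both dpi4 libraries lay above both dpi2 libraries. *Ly6c2* had 45, 8, 287 and 259 UMIs and log2 ratios of 2.12 and 4.02. *Ccl5* had 290, 123, 699 and 791 UMIs, but 170 of the 290 lay in 1 cell, and the gene passed the rule with the KO label (log2 1.69, 1.41 to 1.97) but not in the controls (0.72, 0.52 to 0.92). Perforin had too few UMIs to compare, with 0, 0, 3 and 1 of *Prf1*. Of the 16 cytotoxic genes, 7 could be tested in the controls, where 3 were higher and 1 lower (median log2 0.72). Of all genes tested there, 6.33% were higher and 6.86% lower (median 0.03). With the KO label 5 could be tested and 4 were higher (median 1.69). There 3.97% of all genes were higher and 4.27% lower (median 0.00). Of the higher cytotoxic genes, 2 of 3 and 4 of 4 also passed without their richest cell. Cells with *Ncr1* or *Klrb1c* numbered 1 of 24 in the control at dpi2 and 4 of 25 at dpi4. Of 7 NK marker genes, 2 could be tested in the controls. Both, *Tyrobp* and *Fcer1g*, adaptors that myeloid cells also use, were higher at dpi4 (median log2 1.11), beside 6.33% of all genes. Neither was higher without its richest cell, and no NK marker gene could be tested with the KO label. With the mixed barcodes, 0 of 2 were higher in the controls and 2 of 2 with the KO label, beside 4.29% and 7.23%. Macrophage genes are given to describe the cells and are no finding, because the limit for mixed barcodes read all 15 of them. Without mixed barcodes, 2 of 3 tested were higher at dpi4 in the controls, *Lyz2* and *Apoe*, beside 6.33% of all genes tested. With the KO label 2 of 2 were higher, *Apoe* and *Spp1*, beside 3.97%. The sum of the 15 genes had medians of 7.82, 5.25, 26.1 and 13.6 UMIs per 10000 in the T cells. Single cells ran from 0 to 27.5, 0 to 25.6, 12.2 to 50.5 and 0 to 33.1. *C1qc*, on which the rule for T cells set a limit, had 0 UMIs in both dpi2 libraries. When mixed barcodes were counted, 1 of 6 macrophage genes was higher and 2 lower in the controls, beside 4.29% and 7.38% of all genes. With the KO label 1 of 2 was then higher, beside 7.23%. The part of NK and macrophage markers in the cytotoxic counts was not tested.

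Several genes were lower at dpi4. *Il7r*, a receptor of long-lived and innate-like T cells, had 123, 101, 49 and 82 UMIs, with log2 ratios of −1.88 (−2.39 to −1.39) in the controls and −1.30 (−1.74 to −0.86) with the KO label. *Maf*, a factor of type 17 and regulatory cells, had 71, 79, 37 and 31 UMIs and ratios of −1.49 and −2.35. *Tmem176a* had 59, 29, 13 and 24 UMIs and ratios of −2.73 and −1.27. *Tmem176b* had 43, 34, 15 and 26 UMIs, at −2.07 and −1.39. With the KO label both turned, to 0.42 and 0.15 from 1 CD3 UMI and to 0.27 and 0.061 under the stricter myeloid limits, with intervals that held 0. *Cd163l1* itself had 47, 21, 23 and 41 UMIs: it was lower at dpi4 in the controls (−1.58, −2.37 to −0.83), while with the KO label the ratio was −0.03 (−0.83 to 0.80). *Il17a* had 23, 43, 32 and 0 UMIs, of which 42 of the 43 and all 32 lay in 1 cell each. Its sums thus follow single cells.

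Proliferation genes were higher at dpi4 in the controls. *Stmn1*, which loosens microtubules in dividing cells, had 1, 0, 53 and 16 UMIs, and *Tubb5*, a tubulin, had 13, 1, 98 and 38. *Top2a*, the topoisomerase of replicating DNA, had 7, 4, 45 and 9 UMIs, of which 30 of the 45 lay in 1 cell. Of 4 cell cycle genes tested in the controls, these 3 were higher at dpi4, beside 6.33% of all genes tested, and *Stmn1* and *Tubb5* also without their richest cell. With the KO label, 0 of 1 passed. Including the mixed barcodes, 3 of 4 were higher in the controls and 1 of 2 with the KO label. Cells with at least 3 of 13 cell cycle genes numbered 9 of 24, 5 of 14, 11 of 25 and 20 of 31, and 12, 5, 13 and 24 with the mixed barcodes. With those included and every cell thinned to 2000 UMIs, they numbered 2 of 29, 0 of 14, 11 of 25 and 8 of 34, so that the control at dpi4 then had the highest share, 44.0% (24.4 to 65.1).

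The first genotype comparison asked how T cells differed in the library labelled KO at dpi2. *Icos*, *Dusp5* and the immediate early genes *Junb* and *Nr4a1* were higher there, and *Ltb*, *Gzma* and *Gzmb* lower, but single cells held many of these UMIs. Of 516 genes tested without the mixed barcodes, 18 (3.49%) were higher and 11 (2.13%) lower. With the mixed barcodes, 3.9% of 770 genes were higher and 7.92% lower. When the richest cell was left out for each gene, 2 remained higher, *Dusp5* and *Aes*, and 3 lower, *Zcchc11*, *Ly6c2* and *Ltb*.

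*Icos*, a costimulatory receptor, had 39 UMIs in 14 of 24 control cells and 67 in 14 of 14 cells with the KO label at dpi2, a log2 ratio of 1.24 (0.65 to 1.84). Without its richest cell, with 20 UMIs, *Icos* did not pass. *Junb*, a part of the AP-1 factor, had 138 and 239 UMIs (1.25, 0.94 to 1.56), with 62 in 1 cell. *Nr4a1*, induced by the T cell receptor signal, had 31 and 61 UMIs, of which 37 lay in 1 cell. *Dusp5*, a phosphatase that restrains ERK signalling, had 20 and 53 UMIs (1.86, 1.10 to 2.68), with at most 14 in 1 cell. Of 13 activation genes 4 could be tested and 3 were higher, and of 12 immediate early genes 6 could be tested and 2 were higher, beside 3.49% of all genes. Without each gene's richest cell, none of these 5 passed. When mixed barcodes were counted, 3 of 5 activation genes were higher, 1 of them also without its richest cell, and 2 of 7 immediate early genes, neither of which then passed. On the other side, *Ltb*, lymphotoxin beta, had 73 and 21 UMIs (−1.34, −2.12 to −0.63), in 21 of 24 and 9 of 14 cells. *Gzmb*, granzyme B, had 61 and 10 UMIs (−2.15), but 42 of the 61 lay in 1 control cell, and *Gzma* had 53 and 3, with 52 of the 53 in 1 cell. *Furin*, a protease that matures growth factors, had 14 and 43 UMIs, 24 of them in 1 cell.

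At dpi4, *Itgb1*, *Il18r1*, *Nfatc3*, *Nr4a3*, *S100a4* and *Rora* were higher in the library labelled KO, and *Gzmb* and the cell cycle genes *Stmn1*, *Tubb5* and *Top2a* lower. Of 895 genes tested without the mixed barcodes, 28 (3.13%) were higher and 35 (3.91%) lower. With them, 4.16% of 1370 genes were higher and 2.55% lower. Without each gene's richest cell, 13 stayed higher and 9 lower. *Itgb1*, the integrin beta 1 chain that binds matrix and vessel wall, had 46 UMIs in 17 of 25 control cells and 132 in 23 of 31 cells with the KO label, a log2 ratio of 1.53 (1.03 to 2.04). *Il18r1*, the interleukin-18 receptor, had 17 and 51 UMIs (1.59, 0.78 to 2.48). *Thy1*, a T cell surface protein, had 45 and 102 UMIs (1.19, 0.67 to 1.73) in 16 and 27 cells. *Nr4a3*, induced by receptor signals, had 31 and 76 UMIs (1.30, 0.68 to 1.95). *Nfatc3*, a factor activated by calcium, had 16 and 49 UMIs (1.62, 0.78 to 2.54). Of these genes, only *Thy1* did not pass once its richest cell was left out.

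*S100a4*, a calcium-binding protein of motile memory cells, had 242, 275, 151 and 362 UMIs, and its log2 ratio at dpi4 was 1.27 (0.99 to 1.55). *Rora*, a factor of type 17 and innate-like cells, had 65, 48, 31 and 73 UMIs (1.24, 0.62 to 1.90). Both genes were named after their values were seen. For both, the control at dpi4 was the lowest of the 4 libraries. *Gzmb* had 99 and 28 UMIs at dpi4 (−1.81, −2.48 to −1.20), and 38 of the 99 lay in the 4 cells with NK markers. *Gzma* had 15 and 87 UMIs (2.54, 1.74 to 3.44), of which 42 of the 87 lay in 1 cell that held *Klrb1c*, but from 1 CD3 UMI, with mixed barcodes, its ratio was −0.039 (−0.47 to 0.39). *Xcl1*, with 57 and 1 UMIs, was lower (−5.83, −11.15 to −3.29), and nearly all its UMIs lay in those cells with NK markers. Of 7 NK marker genes, 2 could be tested and both were lower (median log2 −1.16), beside 3.91% of all genes, though neither without its richest cell. With the mixed barcodes 0 of 2 were lower, beside 2.55%. *Hspd1*, a mitochondrial chaperone, had 56 and 15 UMIs (−1.89, −2.82 to −1.05), and *Mif*, a secreted inflammatory protein, 118 and 40 (−1.55, −2.11 to −1.03), both also named after their values were seen. *Tubb5* and *Stmn1* were lower as well, at −1.36 (−1.94 to −0.81) and −1.72 (−2.63 to −0.89), so that of 5 cell cycle genes tested 3 were lower and none higher, beside 3.91% of all genes lower. Without each gene's richest cell, 0 of the 3 passed. Including the mixed barcodes, 3 of 6 were lower, 2 of them also without their richest cell. The share of cells with at least 3 cell cycle genes was 20.5 points higher with the KO label (−7.96 to 46.0). Thinned, with mixed barcodes, it differed by −20.5 points (−45.1 to 5.90), so the direction turned and both intervals held 0.

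Both genotype comparisons called 2 genes higher and 1 lower with the KO label: *Nr4a3* (log2 1.04 at dpi2 and 1.30 at dpi4), *Gm26532* (1.33 and 1.20) and *Gzmb* (−2.15 and −1.81). They are 11.1% and 7.14% of the genes that were higher, and 9.09% and 2.86% of those that were lower. In *Nr4a3* at dpi2, 19 of 36 UMIs lay in 1 cell. All 3 directions turned in a further setting: under the stricter myeloid limits *Gm26532* at dpi4 was −1.58 (−2.73 to −0.42) and *Nr4a3* −0.36 (−1.81 to 1.30), and for mitochondrial shares under 5% *Gzmb* at dpi2 was 4.48 (1.63 to 9.93). With the mixed barcodes, 3 genes were higher at both times, *Nr4a3*, *Gm26532* and *Thy1* (1.14 and 1.01), which are 10% and 5.26% of the genes that were higher. There 6 genes were lower at both times, 9.84% and 17.1% of those that were lower, among them *Lyz2*, *Ccl3*, *Cxcl2*, *Gzmb* and *Ccl4*. Of 14 genes called in both genotype comparisons with the mixed barcodes, 5 went in opposite directions.

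Within CD8 cells, 12 in each dpi4 library, several of the same genes differed. Of 368 genes tested, 10 (2.72%) were higher with the KO label and 12 (3.26%) lower. *Itgb1* had 18 UMIs in the control and 60 with the KO label (1.51, 0.73 to 2.35), and *S100a4* had 39 and 117 (1.35, 0.82 to 1.92). *Gzma* had 13 and 73 UMIs in 5 and 4 cells (2.26), and 42 of the 73 lay in the cell with *Klrb1c*. *Smad7*, an inhibitor of TGF-β signalling, had 15 and 59 (1.74, 0.91 to 2.67) in 7 and 12 of the 12 cells. *Gzmb* had 54 and 28 (−1.18, −1.89 to −0.49), and *Tubb5* 60 and 18 (−1.97). *Thy1* had 29 and 64 UMIs within CD8 cells and did not reach 2-fold (0.91).

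Genes of the receptor signal itself were compared as a list. Of 16 such genes 13 were in the tables. Without mixed barcodes 8 could be tested between labels at dpi4, with *Thy1* as the 1 that was higher (median log2 0.22), beside 3.13% of all genes tested, and at dpi2 none of 4 passed (median 0.37), beside 3.49%. With the mixed barcodes, 2 of 6 were higher at dpi2, *Lat* (45 against 41 UMIs, log2 1.31) and *Thy1* (34 against 35, 1.14), beside 3.9% of all genes, and all 6 ratios lay above 0 (median 0.53). Neither passed without its richest cell. At dpi4 1 of 9 was then higher, beside 4.16%. Per cell, the summed list had medians of 30.5, 35.1, 31.0 and 40.8 UMIs per 10000, with lowest cells of 15.7, 21.4, 6.16 and 12.4 and highest of 53.0, 50.2, 65.8 and 66.8. The ranges of all libraries overlapped over most of their width. *Lck*, the kinase that starts the signal, had 12, 27, 43 and 45 UMIs and was higher at dpi4 in the controls (1.29, 0.34 to 2.35). *Cd69*, an early activation marker, had 31, 38, 45 and 71 UMIs and did not pass in any comparison. The cytotoxic list had medians of 7.45, 11.6, 68.2 and 38.8 per 10000, with cells from 0 up to 263, 207, 426 and 354. At dpi4 the median was thus lower with the KO label, but the ranges overlapped. Summed over the cells, the list ran the other way at dpi4, at 79.6 per 10000 in the control and 91.9 with the KO label. Between labels at dpi4, 7 cytotoxic genes could be tested without mixed barcodes. Of these, 1 was higher and 1 lower, and 5 ratios lay above 0 (median log2 0.28). The direction between labels at dpi4 therefore depended on the summary used.

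**Figure D3:**
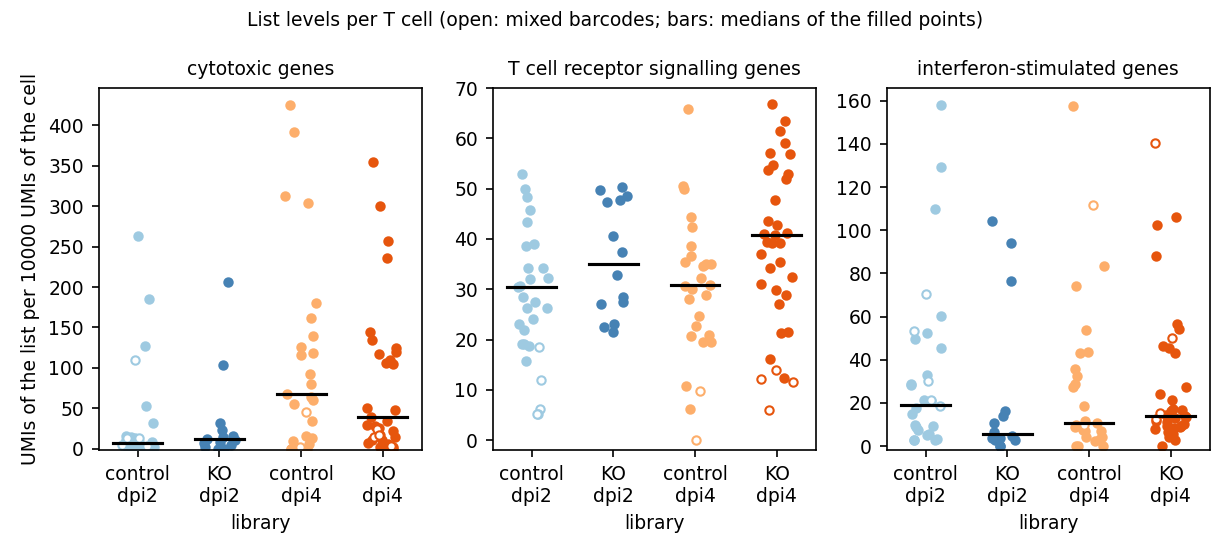
UMIs of a gene list per 10000 UMIs of the cell (vertical axis), 1 point per T cell, by library (horizontal axis); open points are mixed barcodes and bars are medians of the filled points. Cytotoxic genes had medians of 68.2 and 38.8 at dpi4 against 7.45 and 11.6 at dpi2, and every list shown overlapped in all libraries.

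Chemokine receptors and a further integrin chain were read over all libraries. *Cxcr6*, which binds CXCL16 of tissue macrophages, had 51, 43, 52 and 68 UMIs and passed in no comparison. *Ccr2*, which guides cells from blood to inflamed tissue, had 64, 37, 34 and 62 UMIs and was lower at dpi4 in the controls (−1.46, −2.11 to −0.84). *Itga4*, the alpha chain that pairs with integrin beta 1, had 17, 26, 71 and 95 UMIs and was higher at dpi4 in the controls (1.51, 0.73 to 2.37). Among cytokines, *Ifng* had 0, 0, 19 and 12 UMIs, in 5 and 9 cells at dpi4, too few for the rule, and *Il4*, *Il13*, *Il21* and *Il22* had 0 in every library.

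Type I interferon response genes were examined as a list of 20, whose promoters often carry the interferon response element, here read as GAAA followed after any 2 bases by a further GAAA. The list summed to medians of 19.2, 5.62, 10.7 and 13.7 UMIs per 10000 in the T cells, with cells from 2.68 to 158 in the control at dpi2 and from 0 to 104 in the library labelled KO. The libraries overlapped. Few members had enough UMIs, and no count of members past the rule is given for this list. *Isg15*, a ubiquitin-like protein, had 21, 17, 21 and 27 UMIs, *Bst2*, which tethers viruses to cells, 21, 11, 45 and 40, and *Ifit3*, which blocks viral RNA, 5, 1, 15 and 3. Between labels, of these 3 genes *Bst2* at dpi4 was the 1 with 50 UMIs in the pair (log2 −0.16, −0.81 to 0.48).

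RefSeq promoters (GRCm38.p6, 250 bases before to 50 after the start) were found for 14 of the 20 genes, and 8 of them (57.1%) held the motif on either strand. Of all 27025 promoters, 1079 (3.99%) held it. To show the motif beside the counts, 30 bases around it follow for these 3 genes, on the strand of the gene, with the motif or its reverse complement in capitals.
Isg15, chr4:156200865-156200894, minus strand: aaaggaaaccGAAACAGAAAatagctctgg
Bst2, chr8:71537577-71537606, minus strand: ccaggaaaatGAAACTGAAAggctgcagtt
Ifit3, chr19:34583363-34583392, plus strand: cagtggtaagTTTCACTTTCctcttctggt
These stretches end their motifs 56, 114 and 146 bases before the start, and other copies of the motif overlap those of *Isg15* and *Bst2*. A match describes the letters only.

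*Hmox1*, encoding heme oxygenase-1, is repressed by BACH1 in many cells, so its level was read in T cells, which should not delete *Bach1*. It was higher in the libraries labelled KO. *Hmox1* had 1 UMI in 1 of 24 T cells, 13 in 9 of 14, 2 in 2 of 25 and 41 in 22 of 31, without mixed barcodes. In CPM that is 9.37 (0.237 to 52.2), 167 (89.0 to 286), 12.8 (1.55 to 46.3) and 264 (189 to 358). With 14 and 43 UMIs in the pairs, it fell short of the 50 UMIs of the rule. Thinned to 2000 UMIs, 4.17%, 28.6%, 4.35% and 36.7% of T cells held *Hmox1*. NK cells, at median depths of 4222, 4736.5, 7728 and 6753.5 UMIs, gave 8.33%, 30.0%, 3.45% and 33.3%, so the share in T cells lay within the interval of NK cells in every library. NK cells had exact intervals of 3.12% to 17.3%, 11.9% to 54.3%, 0.0873% to 17.8% and 21.7% to 46.7%.

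Macrophages held 613, 9896, 466 and 7328 CPM of *Hmox1*, and the T cell level was 1.53%, 1.69%, 2.75% and 3.60% of it. Over 8 macrophage genes, the T cell level was in the median 2.06%, 1.51%, 3.55% and 2.71% of that in macrophages, and the *Hmox1* percentage lay within the range of those genes in every library. *Lyz2*, which T cells do not use, had 28 UMIs in 17 of 24 T cells and 95 in 25 of 25 T cells of the controls, 3.12% and 3.37% of the macrophage level. It had 0 UMIs in the T cells of both libraries labelled KO, where macrophages too had nearly none. *Apoe*, abundant in macrophages, had 15, 5, 152 and 82 UMIs in T cells, 2.86%, 0.956%, 3.59% and 2.60% of the macrophage level, and was higher at dpi4 in both time comparisons (2.79, 2.02 to 3.66, and 3.04, 1.76 to 4.70). The limit for mixed barcodes read *Apoe* too. With at least 1 CD3 UMI and the mixed barcodes both ratios turned, to −0.77 (−0.996 to −0.549) in the controls and −1.69 (−1.98 to −1.41) with the KO label. The contribution of macrophage RNA to the *Hmox1* counts of T cells was not tested. NK cells held *Hmox1* at 12.1%, 15.7%, 3.95% and 2.15% of the macrophage level, and the 8 macrophage genes at 12.8%, 2.44%, 2.72% and 2.06% in the median, so at dpi2 they held more *Hmox1* than T cells did. B cells, chosen by *Cd79a* and *Cd79b*, held the 8 genes at 35.5% to 62.0% in the median.

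**Figure D4:**
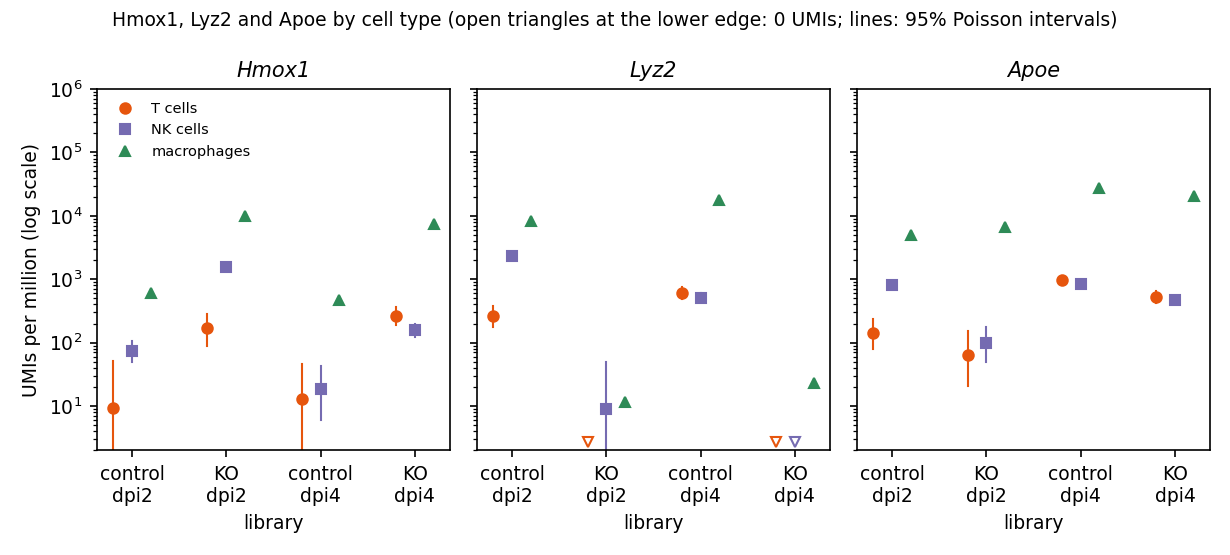
CPM (vertical axis, log scale) of *Hmox1*, *Lyz2* and *Apoe* in T cells without mixed barcodes, NK cells and macrophages, by library; lines are 95% Poisson intervals and open triangles at the lower edge stand for 0 UMIs. In T cells *Hmox1* was 167 and 264 CPM in the libraries labelled KO and 9.37 and 12.8 in the controls, below the macrophages of the same library throughout.

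*Bach1* had 4, 2, 7 and 10 UMIs in T cells and *Bach2*, the related factor of lymphocytes, 3, 2, 4 and 0, so neither could be compared. Of 16 redox and iron genes, 3 could be tested in each genotype comparison without mixed barcodes and none passed at dpi2 or dpi4. With them, 6 could be tested at dpi4 and 2 were higher with the KO label, *Hmox1* (59 against 2 UMIs) and *Nfe2l2* (39 against 14), of which *Hmox1* also passed without its richest cell. The median log2 ratio of the 6 was 0.86, and 4.16% of all 1370 genes were higher in that comparison. *Fth1*, the ferritin heavy chain, had 350, 253, 311 and 499 UMIs, with a log2 ratio of −0.01 (−0.25 to 0.22) at dpi2, where 1 control cell held 150, and 0.69 (0.48 to 0.90) at dpi4. *Prdx1*, a peroxidase, had 39, 29, 80 and 55 UMIs, with ratios of 0.03 and −0.53. *Nfe2l2*, the activator that competes with BACH1 for its sites, had 5, 2, 13 and 13 UMIs.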

How the data were processed

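Raw UMI counts of 27998 genes per barcode were used as deposited. Per the labels, the authors made these counts with Cell Ranger 6.1.2 on mm10. The labels name the 3′ v2 kit and the study's methods v3.1. The study's miQC, scDblFinder, Harmony and Wilcoxon steps were not used. Members, lists and rules were chosen with earlier results of these data known, and the limit for mixed barcodes and the *Cd163l1* subset after the counts were seen. No doublet caller was applied in the main analysis. Shares have Clopper-Pearson intervals, their differences Newcombe's, ratios of summed UMIs the exact conditional binomial and levels the Poisson interval, each at 95%. A count of 0 allows up to 3 counts. Named genes were all members of 21 lists (242 of 254 genes matched) and the 5 highest and 5 lowest past the size rule in each comparison. Others were named after their values were seen: *Cd27*, *Serpinb1a*, *Actn2*, *Bcl2* and *Smad7*, besides those marked in the text. NK cells held at least 2 UMIs of *Ncr1* and *Klrb1c*, and macrophages at least 20 C1q UMIs per 10000. Positions are those of GENCODE vM21 on mm10. Python 3.11.15 with scipy 1.17.1 was used, with edgeR 4.0.16 for TMM factors and scanpy 1.11.5 for Scrublet as alternatives. Results on some genes are not reported here. The ratio script was tested on simulated data. With 1 library per group, no count model was fitted.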

Additional observations from a re-analysis of the deposited data

Results flagged for a closer look

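Among the genes named by the fixed rule, *Gzma* and *Ltb* passed the size rule in opposite directions in a pair of comparisons, without mixed barcodes. With 1 library per group, none of these differences was tested. *Gzma* was lower with the KO label at dpi2 (log2 −3.69, 3 against 53 UMIs) and higher at dpi4 (2.54, 87 against 15 UMIs). Over time *Gzma* was lower at dpi4 in the controls (−2.37) and higher with the KO label (3.86). A single control cell at dpi2 held 52 of the 53 UMIs. These directions did not hold in every setting. With at least 1 CD3 UMI and the mixed barcodes, *Gzma* was 0.54 (0.096 to 0.98) over time in the controls and −0.039 (−0.47 to 0.39) between labels at dpi4, and as a mean of CPM per cell the change in the controls was 0.0039. Under the stricter myeloid limits neither of these 2 ratios passed the size rule. *Ltb* was lower at dpi4 in the controls (−1.28, 44 against 73 UMIs) and higher with the KO label (1.04, 86 against 21 UMIs), with at most 9 UMIs in any cell. These comparisons share libraries.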

How the results depend on the processing

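No paired analysis was possible because each group held 1 library, and leaving out a replicate was not possible for the same reason. The alternatives on mixed barcodes and on each gene's richest cell were chosen after the data were seen. At most 35 T cells came from 1 library, so few genes of each list reached 50 UMIs. Where a value changed, the cause was not tested unless the setting itself uses fewer cells, UMIs or genes.

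The T cell share differed between the KO label and control at dpi4 by 0.430 points without cells with NK markers, and its interval then left out 0. Under the stricter myeloid limits it differed between dpi4 and dpi2 by −0.310 points (−0.532 to −0.0869) in the controls. With the KO label the difference was −0.0611 (−0.334 to 0.213). The CD8 share difference between dpi4 and dpi2 had an interval that held 0 under those limits, at 38.9 points in the controls and 22.2 with the KO label, and at 31.6 with the KO label for mitochondrial shares under 5%. The *Cd163l1* difference in the controls had such an interval in 8 settings: −34.0 points for mitochondrial shares under 5%, −15.9 for at least 1 CD3 UMI, −40.7 under the stricter limits, −25.5 without NK marker cells, −21.8 without cells over 3 times the median depth, −25.9 without the highest Scrublet scores, −25.7 without mixed barcodes and −21.9 thinned.

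Counting the mixed barcodes, the genes past the size rule numbered 91 of 770 and 92 of 1370 tested between labels at dpi2 and dpi4. Between times they numbered 136 of 1165 in the controls and 118 of 955 with the KO label. In this order they numbered 190 of 1752, 141 of 1651, 327 of 1895 and 248 of 1501 with at least 1 CD3 UMI. Without cells over 3 times the median depth they numbered 44 of 595, 52 of 886, 63 of 724 and 72 of 736. From 20 UMIs they were 256 of 2091, 341 of 3509, 372 of 3020 and 316 of 2651. From 200 UMIs they were 5 of 159, 8 of 262, 22 of 234 and 17 of 207. At 1.5-fold, with the same genes tested as at first, they were 158, 255, 306 and 214. Without mixed barcodes and richest cells they were 5, 22, 43 and 24. Without mixed barcodes the first was 29 of 516 and the last 54 of 655. Under the stricter limits the second was 37 of 232 and the last 54 of 349. For mitochondrial shares under 5% the last was 69 of 479.

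Some log2 ratios turned. With at least 1 CD3 UMI, *Apoe* between times was −1.69 (KO) and −0.77 (control), *Egr1* −0.65, *Tmem176a* 0.42 and *Tmem176b* 0.15 (all KO), *Gzma* 0.54 (control), and between labels *Ccl3* was 3.21, *Ccl4* 2.61 and *Cxcl2* 2.34 at dpi2 and *Gzma* −0.039 at dpi4. With at least 3 CD3 UMIs, *Ccl4* was 0.11 and *Cxcl2* 0.23 between labels at dpi4, and *Egr1* −0.40 over time in the controls. Under the stricter limits, *Ccl4* was 1.84, *Gm26532* −1.58 and *Nr4a3* −0.36 between labels at dpi4, and over time *Cd74* was −2.73, *H2-Ab1* −2.95 and *Egr1* −0.34 in the controls and *Tmem176a* 0.27 and *Tmem176b* 0.061 with the KO label. For mitochondrial shares under 5%, *Cxcl10* was 0.60 at dpi4 and *Gzmb* 4.48 at dpi2 between labels. As a mean of CPM per cell, *Gzma* over time was 0.0039 in the controls.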
